A study of Mus musculus with 21 samples.

Results

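Gene expression in total cells on day 5 of coculture was compared between colonies grown on OP9 stromal cells and colonies grown on gelatin without stromal cells. The 6 libraries of the comparison, 3 of 3D+OP9 and 3 of 3D+0.1% gelatin, were chosen by their labels from the 21 libraries of the study, and all 19321 genes with values, of 22899 listed, were taken. Mouse pluripotent stem cells, labelled 129/ola in all 6 libraries, were induced as embryoid bodies in a 3D peptide system, and the colonies were picked and reseeded. In both groups the surface was coated with 0.1% gelatin and in 3D+OP9 it also carried OP9 cells arrested with mitomycin C. The OP9 medium held serum, stem cell factor, IL-3 and Flt3 ligand, and the medium of the gelatin cultures is not given in the sources used here. The other 15 libraries came from undifferentiated stem cells (mESC), from sorted LSKCD201+ and LSKCD201- cells of day 5, and from LSKCD201+ cells of C57BL/6 bone marrow and fetal liver. They are used here only as a second readout. The labels do not say that the 3 libraries of a group came from separate cultures, so each p-value measures the spread between these libraries, which may be technical. OP9 is a mouse line, and total cells of 3D+OP9 can hold its RNA. OP9 cells alone were not sequenced in the libraries used here, so RNA of the stroma and of the induced cells cannot be told apart. In bulk RNA, fewer cells of a type and less RNA per cell cannot be told apart either.

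OP9 cells are bone marrow stromal cells of preadipocyte character that lack macrophage colony-stimulating factor, and they are used to carry pluripotent cells through mesoderm to blood. Blood first forms in the embryo from hemogenic endothelium, vessel-lining cells that switch on blood transcription factors such as Runx1 and Tal1 and lose their endothelial junctions. The first red cells of the yolk sac use embryonic globins.

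The libraries had similar totals, with FPKM (read fragments scaled for transcript length and library size) summing to between 483263 and 508307. Depth is unknown, because FPKM rounded to 2 decimals keep no read numbers. Replicates 1 and 2 of 3D+OP9 lay far closer together than any other pair. Over 747 genes of at least 100 FPKM on average, their log2 ratios had an SD of 0.099, against 0.299 and 0.307 from each of them to replicate 3 and 0.264 to 0.337 between gelatin libraries. Replicate 1 of 3D+0.1% gelatin listed 163 of 264 olfactory receptor genes above 0, and the other 5 libraries 34 to 48.

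More genes rose with OP9 than fell. Fold changes are given as log2 of FPKM plus 1, which understates those of weakly expressed genes, and limma with Benjamini-Hochberg adjustment was run on the 12958 genes whose average over the 6 libraries reached 0.5 FPKM. To be called, a gene needed both a log2 difference of 1 or more in size and, after adjustment, a p below 0.05. By this rule 2.11% of the genes tested rose and 0.509% fell, and 2.62% were called either way. Size differed as well: 55 rises and 5 falls reached a log2 fold change of 2, and 7 rises and 0 falls reached 3. The 3 OP9 libraries lay above the 3 gelatin libraries in 16.5% of the genes tested and below them in 12.2%. The most abundant genes, Eef1a1, Gapdh, Rps2, Ptma and Rpl19, which serve translation, glycolysis and chromatin, had overlapping groups. Of the 273 higher genes, 151 (55.3%) were called whichever library was left out, and of the 66 lower genes 29 (43.9%). Fewer libraries lower the power for any gene, and the loss from this alone was not computed. The counts moved by over 1.5 times without gelatin replicate 2 (172 higher, 37 lower), without OP9 replicate 2 (43 lower) and without OP9 replicate 3 (127 lower).

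**Figure D1:**
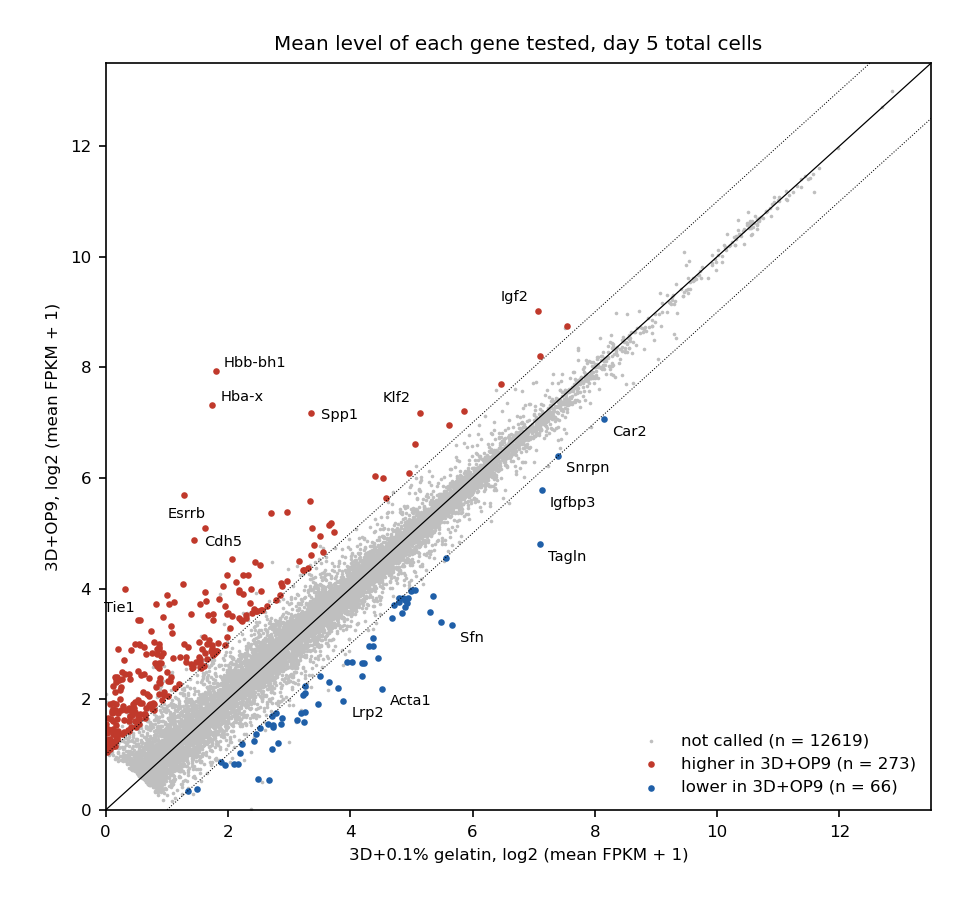
Mean level of the 12958 genes tested, as log2 of mean FPKM plus 1, in 3D+0.1% gelatin (x axis) and 3D+OP9 (y axis). Each point is a gene, red for the 273 called higher and blue for the 66 called lower, the solid line marks equal levels and the dotted lines a log2 difference of 1. Most rises lie at low gelatin levels, and falls such as Tagln, Igfbp3 and Car2 lie at high ones.

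Endothelial genes rose together. Of 38 genes of a core endothelial list, 33 were tested, 22 rose and 0 fell, with a median log2 fold change of 1.3 against 0.01 for all genes tested. Cdh5 (chromosome 8, 104101613 to 104144504 in GRCm38), which encodes VE-cadherin of endothelial junctions, was at 29.1, 31.6 and 24.9 FPKM in the OP9 libraries and 2.70, 0.77 and 1.71 in the gelatin libraries. Tie1 (chromosome 4, 118471191 to 118489849), a receptor tyrosine kinase of the vessel lining, was at 9.12, 10.9 and 9.36 FPKM with OP9 and at 0.80, 0.11 and 0.41 on gelatin. The groups of both genes were far apart, and neither gene reached 3 FPKM in any gelatin library. The log2 fold change was 3.49 (SE 0.25, adjusted p = 0.000726) for Cdh5 and 2.93 (SE 0.19, adjusted p = 0.000623) for Tie1. Pecam1 (CD31, an adhesion molecule) rose by 2.65, the angiopoietin receptor Tek by 2.49, Rasip1 (a signaling adaptor of vessel lumens) by 2.30, Cd34 (a sialomucin) by 2.26, Plvap (a protein of endothelial diaphragms) by 2.25 and the transcription factor Sox18 by 2.16 on the log2 scale. Hapln1, which links hyaluronan to proteoglycans, and Rhoj, an endothelial small GTPase, stood outside the list and were among the 20 largest rises, by 2.90 and 2.65.

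The endothelial rise was not uniform. Apln, the ligand of the apelin receptor, was the single tested member below 0: it was at 14.5, 13.7 and 4.56 FPKM with OP9 and 20.8, 23.9 and 15.1 on gelatin (log2 fold change -0.93, adjusted p = 0.207). Etv2, the factor that starts the endothelial program in mesoderm, was at 23.5, 27.5 and 13.3 against 12.1, 8.47 and 8.53 FPKM and missed the threshold (log2 fold change 1.02, adjusted p = 0.0630). The VEGF receptor Flt1 also missed it (0.99, adjusted p = 0.133). OP9 replicate 3 was the lowest of the 3 OP9 libraries in all of these, and without it Etv2 (1.32, adjusted p = 0.00299) and Flt1 (1.42, adjusted p = 0.00141) were called. Of the 22 rises, 17 were called whichever library was left out. The exceptions among named genes were Kdr, called in 2 of 6 such fits (lost without OP9 replicate 1 or 2 or gelatin replicate 2 or 3, adjusted p 0.106 to 0.138), and Eng, also in 2 (lost without OP9 replicate 2 or 3 or gelatin replicate 1 or 2, adjusted p 0.0211 to 0.0712, in part through a fold under the threshold).

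Genes that separate arteries, veins and lymphatics moved less. Of 27 tested, 4 rose and 1 fell, with a median of 0.49 that came to 0.29 without OP9 replicate 1 or gelatin replicate 3. The risers were Gja4, an arterial gap junction protein (1.40), Dll4, an arterial Notch ligand (1.28), Flt4, the VEGF-C receptor (1.19), and Stab1, a scavenger receptor of sinusoidal endothelium (1.15). The receptor Notch1 and the Notch target Hey1 overlapped between the groups: Notch1 was at 19.3, 17.7 and 8.34 FPKM with OP9 and 13.2, 10.6 and 6.74 on gelatin, and Hey1 at 49.7, 51.0 and 26.1 against 35.9, 26.1 and 19.5. Notch4, an endothelial Notch receptor, was at 1.36, 1.26 and 1.27 against 0.43, 0.36 and 0.44 FPKM, apart but under the fold threshold (0.70, adjusted p = 0.0103), which it passed with a pseudocount of 0.1 (1.46, adjusted p = 0.0108), and the target Hey2 was at 3.33, 3.17 and 3.61 against 3.16, 1.77 and 1.61 (0.49, adjusted p = 0.176). The arterial ephrin Efnb2 overlapped, at 26.8 to 40.6 against 29.9 to 47.9 FPKM. Igfbp3, which binds insulin-like growth factors, went the other way, from 154, 135 and 128 FPKM on gelatin to 64.1, 64.0 and 33.4 with OP9 (log2 fold change -1.41, SE 0.24, adjusted p = 0.0153). Dll4 was called in 2 of the 6 fits that left out a library (lost without OP9 replicate 1 or 2 or gelatin replicate 2 or 3, adjusted p 0.0620 to 0.0883), and Igfbp3 in 4 (lost without gelatin replicate 1 or 2, adjusted p 0.0556 and 0.0761).

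**Figure D2:**
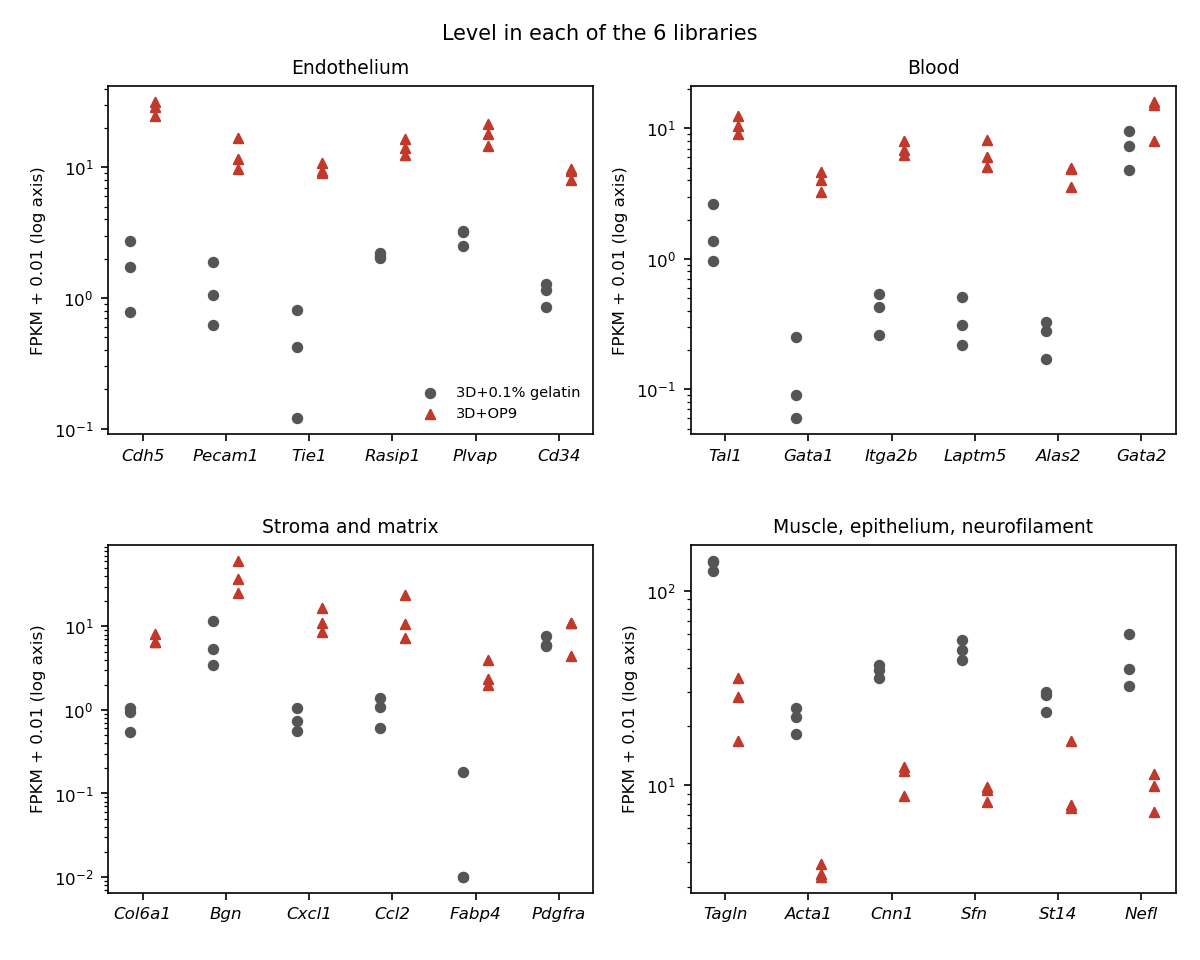
Level of 24 genes in each of the 6 libraries, as FPKM plus 0.01 on a log axis, with grey circles for 3D+0.1% gelatin and red triangles for 3D+OP9. The groups do not overlap for 22 of the genes and overlap for Gata2 and Pdgfra, which were not called.

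Transcription factors of blood formation rose with a broad but partial pattern. Of 20 tested, 12 rose and 0 fell, with a median log2 fold change of 1.09. Tal1, a master regulator of hemogenic mesoderm, was at 10.5, 12.4 and 9.07 FPKM with OP9 and at 2.60, 0.95 and 1.35 on gelatin (log2 fold change 2.19, SE 0.23, adjusted p = 0.00279). The ETS factors Erg and Fli1 rose by 2.13 and 2.10, Lyl1, a relative of Tal1, by 1.86, Gfi1b, a transcriptional repressor that acts in red cell and platelet lineages, by 1.70, Spi1 (PU.1) by 1.47 and Lmo2, the adaptor that bridges Tal1 to GATA factors, by 1.44. Runx1, which drives the endothelial-to-hematopoietic switch, was at 5.35, 6.12 and 3.51 against 2.39, 1.54 and 1.78 FPKM. Its log2 fold change of 1.03 (adjusted p = 0.0237) stood close to the threshold, and it was called in 2 of the 6 fits that left out a library (lost without OP9 replicate 1 or 2 or gelatin replicate 2 or 3, adjusted p 0.0809 to 0.115). Gata2, which maintains blood stem cells, was at 15.04, 15.9 and 8.05 against 9.53, 7.28 and 4.81 FPKM, so that the groups overlapped (0.76, adjusted p = 0.176). It was called without OP9 replicate 3 (1.04, adjusted p = 0.0238).

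Genes of red cells split by stage. Of 7 globin genes tested, 6 rose and 0 fell, with a median log2 fold change of 3.55, or 2.14 without the filter on low values. All 4 of the largest rises were called whichever library was left out: Hbb-bh1 and Hba-x are embryonic globins, and Hba-a1 and Hba-a2 the near-identical adult alpha globins, whose reads cannot be cleanly separated. The globin levels ranged widely among the OP9 libraries: Hba-x (chromosome 11, 32276600 to 32278116) was at 65.1, 150 and 262 FPKM, and at 0, 0.09 and 6.92 on gelatin (6.07, SE 0.83, adjusted p = 0.00724). Hbb-y and Hbb-b1, an embryonic and an adult beta-like globin, rose by 2.21 and 2.07 and were lost without OP9 replicate 2 or any 1 gelatin library (adjusted p 0.0652 to 0.143 and 0.0535 to 0.0926). The summed level of 10 globin genes was 213, 430 and 790 FPKM in OP9 replicates 1, 2 and 3 and 3.32, 1.43 and 19.7 on gelatin, so the lowest OP9 library was still above every gelatin library. Of 26 other erythroid genes tested, 6 rose and 1 fell, with a median of 0.23 that came to 0.34 without gelatin replicate 3. Gata1, the master factor of red cells, was at 3.22, 4.01 and 4.62 against 0.05, 0.08 and 0.24 FPKM (log2 fold change 2.13, SE 0.15, adjusted p = 0.000722). Alas2, the first enzyme of heme synthesis in red cells, was at 3.54, 4.90 and 4.97 against 0.32, 0.27 and 0.16 FPKM (2.12, SE 0.15, adjusted p = 0.000722). The globin factor Nfe2 rose by 1.83, the Gata1 cofactor Zfpm1 by 1.5 and the water channel Aqp1 by 1.44. Late membrane genes were near 0: Slc4a1, the red cell anion exchanger, was at 0.34, 0.54 and 0.63 FPKM with OP9. Klf1, the erythroid Kruppel-like factor, was at 1.10, 1.64 and 2.15 against 0.27, 0.41 and 0.41 FPKM and missed the fold threshold (0.93, adjusted p = 0.0187). It was called without OP9 replicate 1 (1.08, adjusted p = 0.0217) and with a pseudocount of 0.1 (1.87, adjusted p = 0.0139). Carbonic anhydrase Car2 fell from 232, 297 and 320 to 142, 149 and 108 FPKM (-1.09, adjusted p = 0.00830). Car2 was lost without OP9 replicate 3 or gelatin replicate 2 or 3 (adjusted p 0.00509 to 0.0538, in part through a fold under the threshold), and Aqp1 without gelatin replicate 2 (adjusted p 0.0542).

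The promoters of Alas2 and Tal1, 2 called genes of the red cell and blood groups, are shown because each holds the letters AGATAA, a core form of the motif of GATA factors, in the 250 bases before the start. They are read from RefSeq (GRCm38.p6), 5′ to 3′ along the gene, at chrX:150547167-150547416 and chr4:115056176-115056425, both on the plus strand, with the match in capitals. Both matches are on the opposite strand and read TTATCT.
Alas2: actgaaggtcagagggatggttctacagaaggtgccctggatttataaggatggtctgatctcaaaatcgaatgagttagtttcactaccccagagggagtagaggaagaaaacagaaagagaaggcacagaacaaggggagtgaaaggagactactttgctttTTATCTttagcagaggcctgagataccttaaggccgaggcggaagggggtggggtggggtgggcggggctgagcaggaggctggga
Tal1: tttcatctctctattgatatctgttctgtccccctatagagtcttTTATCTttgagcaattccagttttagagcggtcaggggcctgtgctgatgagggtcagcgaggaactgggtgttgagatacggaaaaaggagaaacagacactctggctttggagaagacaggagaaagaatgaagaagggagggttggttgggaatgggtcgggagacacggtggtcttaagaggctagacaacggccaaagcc
The match lay from -86 to -81 in Alas2 and from -205 to -200 in Tal1, counted from the start. Of the 273 higher genes, 182 had a promoter in the table, and 16 of these (8.79%) held AGATAA on either strand, against 4 of 48 lower genes (8.33%) 573 of 10331 genes tested (5.55%) and 2771 of all 27025 promoters of the table (10.3%). A match is a description of the letters only.

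Megakaryocyte genes rose in part. Of 21 megakaryocyte and platelet genes, 9 were tested, 6 rose and 0 fell, with a median of 1.16. The filter averages both groups, so a weak gene could pass it through its OP9 level alone. Without the filter, which 12 genes failed, the median was 0.36. Itga2b (CD41), the first surface integrin of emerging blood progenitors, was at 6.84, 7.93 and 6.24 FPKM with OP9 and 0.53, 0.25 and 0.42 on gelatin (log2 fold change 2.51, SE 0.14, adjusted p = 0.000616). Its partner Itgb3 rose by 1.97 and Plek, a platelet kinase substrate, by 1.63, and all of these were called whichever library was left out. The platelet chemokine Pf4 was listed at 0 to 0.09 FPKM in the 6 libraries, and Gp9 of the platelet von Willebrand receptor at 0 to 0.32. Among myeloid genes 9 of 51 with values were tested and 2 rose. These were Laptm5, a lysosomal protein of blood cells, at 5.01, 6.05 and 8.13 against 0.50, 0.30 and 0.21 FPKM (2.45), and the mannose receptor Mrc1, which sinusoidal endothelium also carries (1.13). Other members of the list were measurable: granule peroxidase Mpo, just under the filter, was at 0.70, 1.02 and 1.16 against 0, 0 and 0.08 FPKM, and the lysosomal protein Cd68 and the lectin Lgals3, which many cell types express, were well above the filter. Defining leukocyte genes were at most 0.25 FPKM in every library: Ptprc (CD45) reached 0.11, Csf1r 0.13, Itgam 0.16 and Lyz2 0.25.

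Receptors for the cytokines in the OP9 medium were present at different levels. Kit, the receptor for stem cell factor, was at 13.3, 12.6 and 12.9 against 8.11, 4.90 and 4.59 FPKM (log2 fold change 1.05, adjusted p = 0.0173). Il3ra, the IL-3 receptor alpha chain, was at 10.5, 10.8 and 10.4 FPKM with OP9 and 10.6, 8.05 and 7.23 on gelatin, which overlap. Its partner Csf2rb was lower in level and rose from 0.04, 0.01 and 0.06 to 1.15, 1.43 and 0.86 FPKM (1.04, adjusted p = 0.00553). Flt3, the receptor for Flt3 ligand, did not pass the filter, at 0.18, 0.14 and 0.16 FPKM with OP9 and 0.37, 0.28 and 0.23 on gelatin. In all, 3 of 11 cytokine receptors tested rose and 0 fell (median 0.46). Kit was called in 2 of the 6 fits that left out a library (lost without OP9 replicate 1 or 2 or gelatin replicate 2 or 3, adjusted p 0.0568 to 0.0919), and Csf2rb fell under the filter without OP9 replicate 1 or 2.

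Matrix genes rose in part. Of 40 genes of collagens and elastic fibers tested, 10 rose and 0 fell, with a median of 0.49, and 38 had a fold change above 0. The 3 chains of collagen VI, a beaded-filament collagen around cells, rose together: Col6a1 was at 8.02, 6.56 and 6.50 against 1.04, 0.53 and 0.93 FPKM (log2 fold change 2.14, SE 0.15, adjusted p = 0.000722), Col6a2 changed by 1.74 and Col6a3 by 1.65. Emilin1, an elastic fiber glycoprotein, rose by 1.78, Col1a2 by 1.56 and Col3a1 by 1.43. The partner chain Col1a1 was not called, at 21.97, 23.7 and 26.4 against 19.8, 12.4 and 17.3 FPKM (0.53, adjusted p = 0.107), and neither was fibronectin Fn1 (0.65, adjusted p = 0.196). Of 23 matricellular and protease genes tested, 5 rose and 0 fell (median 0.65). Bgn, the proteoglycan biglycan, was at 37.3, 25.2 and 60.7 against 5.37, 3.45 and 11.5 FPKM (2.48, adjusted p = 0.0152), Spp1 (osteopontin) changed by 3.70, Postn (periostin) by 2.34, Wisp2 by 1.53 and Prelp by 1.02. Of these 5, Wisp2 was called whichever library was left out, while Spp1 and Postn were lost without gelatin replicate 2 (adjusted p 0.0508 and 0.0631), Bgn without OP9 replicate 1 or gelatin replicate 1 or 2 (0.0516 to 0.0651), and Prelp fell under the filter without any 1 of the OP9 libraries.

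Genes of stromal cells, which OP9 cells are, were read as a group. Of 20 mesenchymal and niche genes tested, 6 rose and 0 fell (median 0.54), and the summed level of all 27 was 229 to 279 FPKM with OP9 and 114 to 161 on gelatin. The chemokines that draw neutrophils and monocytes led: Cxcl1 was at 11.03, 8.67 and 16.7 against 1.06, 0.72 and 0.55 FPKM (log2 fold change 2.85, SE 0.23, adjusted p = 0.00115), and Ccl2 at 10.6, 7.23 and 23.5 against 1.07, 0.59 and 1.38 (2.74, SE 0.38, adjusted p = 0.00721). Ccl7 rose by 2.05, the IGF-binding genes Igfbp5 and Igfbp4 by 1.63 and 1.53, and Prrx1, a limb and stromal transcription factor, by 1.07. Niche factors of marrow stroma were not called: Cxcl12 overlapped, at 10.9 to 13.8 FPKM with OP9 and 12.6 to 15.5 on gelatin, and Kitl was apart, at 3.00 to 5.08 against 2.0 to 2.75 (0.60, adjusted p = 0.120). The general mesenchymal receptor Pdgfra overlapped (4.47 to 11.1 against 5.90 to 7.63 FPKM), and Pdgfrb stayed under the fold threshold (0.66, adjusted p = 0.0217). Cxcl1, Ccl2 and Igfbp5 were called whichever library was left out. Ccl7 was lost without any 1 gelatin library (adjusted p 0.0568 to 0.101), Igfbp4 without OP9 replicate 1 or 2 or gelatin replicate 2 or 3 (0.0596 to 0.0893), and Prrx1 without OP9 replicate 3 or gelatin replicate 2 (0.00851 and 0.0579, with folds under the threshold).

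Of the preadipocyte list, 2 of 10 tested genes rose and 0 fell (median 0.22, or 0.12 without OP9 replicate 3), and its sum was 70.0 to 84.7 FPKM with OP9 and 49.1 to 57.3 on gelatin. Fabp4, a fatty acid carrier of adipocytes and of some endothelium, was at 2.32, 1.99 and 3.95 FPKM with OP9 and 0, 0 and 0.17 on gelatin (log2 fold change 1.80, SE 0.20, adjusted p = 0.00319). Dlk1, an inhibitor of fat cell formation, was at 24.5, 31.7 and 38.8 against 14.9, 9.33 and 12.6 FPKM (1.3, adjusted p = 0.0110). Pparg, the master factor of fat cells, was at 1.23, 0.55 and 1.39 against 0.08, 0.15 and 0.23 FPKM (0.81, adjusted p = 0.0410). It was called without OP9 replicate 2 (1.0, adjusted p = 0.0214) and with a pseudocount of 0.1 (2.15, adjusted p = 0.0256). The mature fat cell genes Adipoq and Plin1 were at most 0.13 FPKM in every library. Hprt, a purine salvage gene that most cells express well, was low throughout: 0.57, 0.95 and 1.66 FPKM with OP9 and 0.55, 0.39 and 0.66 on gelatin. In the sorted-cell table, which was normalized separately, it was at 1.15 to 1.84 FPKM in mESC, 4.84 to 7.41 in D5-LSKCD201-, 5.66 to 6.09 in D5-LSKCD201+, 161 to 168 in bone marrow and 238 to 250 in fetal liver cells. The Hprt level of OP9 cells is not known from these libraries, and the part of OP9 RNA in the rises above was not tested.

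Genes of the pluripotent state went in both directions. Of 31 tested, 9 rose and 0 fell by the rule, with a median log2 fold change of 0.60, and 20 were above 0 and 11 below. Several risers are known as factors of naive (inner cell mass-like) stem cells, while Klf4, another of that kind, was not called (0.82, adjusted p = 0.0161). Esrrb (chromosome 12, 86361117 to 86521628), an orphan nuclear receptor that sustains self-renewal, was at 28.3, 24.9 and 46.1 FPKM with OP9 and 2.04, 2.01 and 2.19 on gelatin (3.42, SE 0.21, adjusted p = 0.000623). Zfp42 (Rex1) was at 30.95, 36.1 and 53.2 against 3.88, 4.91 and 7.71 FPKM (2.67, SE 0.26, adjusted p = 0.00215). The nuclear receptor Nr0b1 rose by 2.51, the F-box gene Fbxo15 by 2.39, Tcl1 by 2.05, Klf2 by 2.02 and Tfcp2l1 by 1.73. These 7 were called whichever library was left out, and OP9 replicate 3 was the highest of the 6 libraries for all but Tfcp2l1. Tdh, a threonine dehydrogenase of stem cells (1.39), and the Nodal antagonist Lefty2 (1.14) were less stable: Tdh was lost without any 1 gelatin library (adjusted p 0.0569 to 0.112), and Lefty2 without OP9 replicate 2 (0.0673) or, with a fold under the threshold, without gelatin replicate 3 (0.0303).

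The core factors lay on the other side. Pou5f1 (Oct4) was at 334, 327 and 503 FPKM with OP9 and 579, 640 and 653 on gelatin (log2 fold change -0.71, SE 0.16, adjusted p = 0.0446), and Nanog at 76.7, 72.9 and 70.3 against 171, 171 and 106 (-0.98, SE 0.18, adjusted p = 0.0197). Both groups were apart without overlap, yet neither gene reached the fold threshold, and without gelatin replicate 3 Nanog was called lower (-1.21, adjusted p = 0.00537). Sox2 overlapped, at 38.6, 41.2 and 92.0 FPKM with OP9 and 79.1, 91.8 and 60.7 on gelatin. Of 18 genes of the epiblast and primitive streak tested, 0 rose and 0 fell by limma (median -0.53), 13 were below 0, and 2 of these had an unadjusted p under 0.05. The median came to -0.08 without OP9 replicate 3 and to -0.24 without gelatin replicate 1. The streak factor T (brachyury) was at 164, 151 and 35.3 FPKM with OP9 and 196, 226 and 117 on gelatin, and its partner Eomes at 52.5, 55.2 and 16.6 against 77.4, 74.3 and 57.7. OP9 replicate 3 was the lowest library for both.

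**Figure D3:**
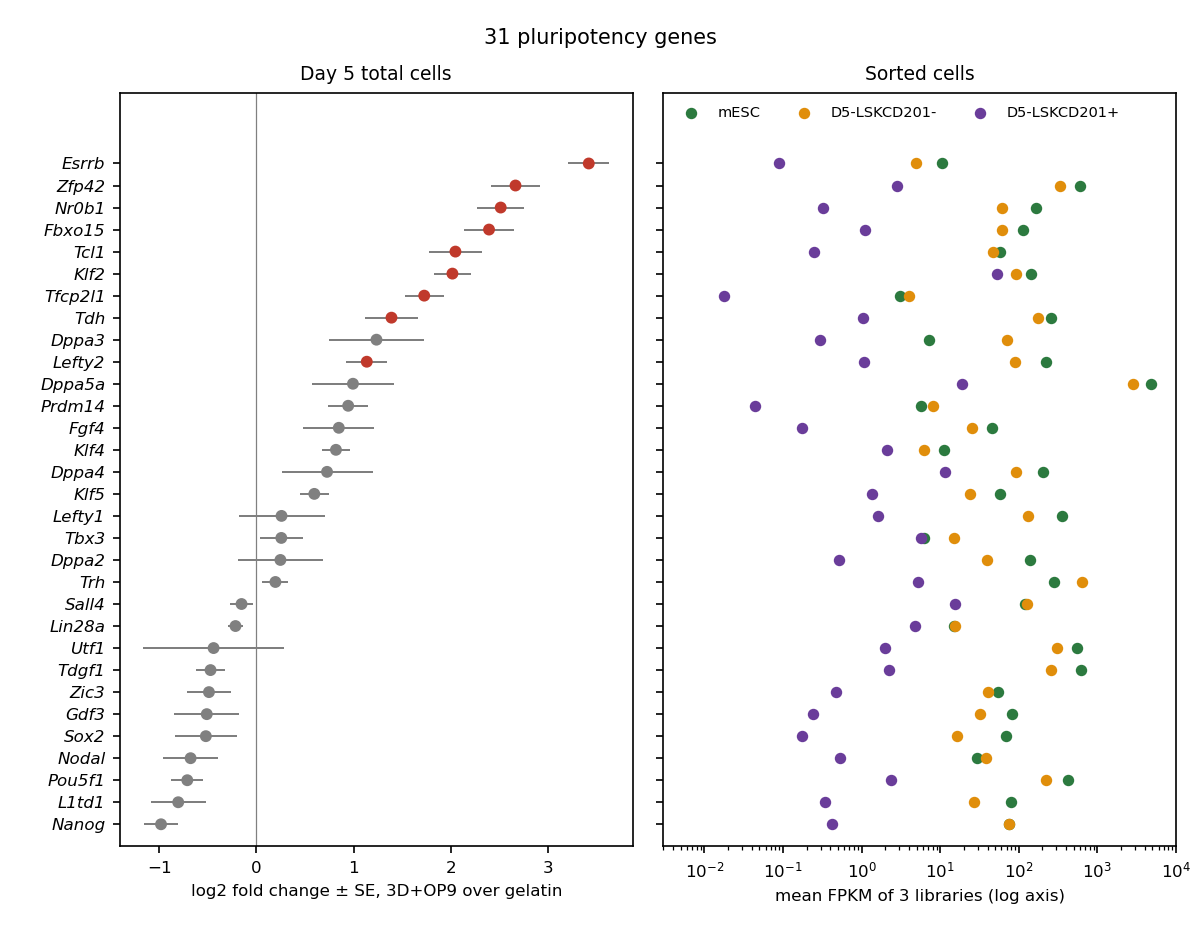
Left, log2 fold change with its SE for 31 pluripotency genes, 3D+OP9 over 3D+0.1% gelatin, red where called. Right, mean FPKM of 3 libraries on a log axis in mESC (green), D5-LSKCD201- (orange) and D5-LSKCD201+ (purple) cells. Esrrb, Zfp42 and Nr0b1 head the rises, Nanog has the lowest fold change, and the purple points lie below the orange ones for every gene.

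Contractile genes were among the largest falls. Of 21 smooth muscle and actin cytoskeleton genes tested, 4 fell and 0 rose, with a median of -0.25. Fold changes were below 0 in 14 and above 0 in 7. The OP9 libraries lay below the gelatin libraries without overlap in 10 and above them in 5. Tagln (chromosome 9, 45929628 to 45936058), the actin-binding transgelin, was at 28.4, 35.3 and 16.9 FPKM with OP9 and 126, 142 and 140 on gelatin. Acta1 (chromosome 8, 123891758 to 123894775), skeletal alpha actin, was at 3.49, 3.35 and 3.90 against 18.3, 24.9 and 22.4 FPKM. Every OP9 library was below every gelatin library by more than the range of either group. Tagln fell by 2.35 (SE 0.23, adjusted p = 0.00230) and Acta1 by 2.31 (SE 0.13, adjusted p = 0.000622). Cnn1, calponin, fell from 35.5, 38.9 and 41.2 to 12.3, 8.78 and 11.8 FPKM (-1.74, SE 0.13, adjusted p = 0.000866), and Myl9, a regulatory myosin light chain, from 33.9, 31.6 and 31.6 to 15.6, 13.9 and 14.6 (-1.09, SE 0.08, adjusted p = 0.000838). All 4 were called whichever library was left out. Smooth muscle actin Acta2 did not move with them, at 28.4, 40.2 and 29.6 FPKM with OP9 and 35.0, 34.8 and 46.9 on gelatin. Of 13 heart muscle genes tested, 3 rose and 0 fell, 10 were above 0 and 3 below, and the median of 0.74 came to 0.43 without OP9 replicate 2. The risers were the cardiac transcription factor Hand2 (2.09), the atrial light chain Myl7 (1.61) and the slow troponin Tnni1 (1.31). None of these 3 was called in all 6 fits that left out a library: Hand2 was lost without OP9 replicate 2 (adjusted p 0.0537), Myl7 without OP9 replicate 1 or 2 or gelatin replicate 2 or 3 (0.0838 to 0.131) and Tnni1 without any 1 gelatin library (0.0629 to 0.104).

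The promoters of Acta1 and Myl9 are shown because both fell and both hold a CArG box, the element of serum response factor (CC, then 6 bases of A or T, then GG), in the 250 bases before the start. In RefSeq (GRCm38.p6) they lie at chr8:123894776-123895025 on the minus strand and chr2:156775214-156775463 on the plus strand, and are written 5′ to 3′ along the gene with the box in capitals.
Acta1: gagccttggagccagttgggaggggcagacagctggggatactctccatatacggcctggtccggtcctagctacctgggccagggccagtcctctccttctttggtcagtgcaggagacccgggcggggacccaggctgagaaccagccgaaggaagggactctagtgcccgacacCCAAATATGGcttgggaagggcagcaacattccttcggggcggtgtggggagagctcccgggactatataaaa
Myl9: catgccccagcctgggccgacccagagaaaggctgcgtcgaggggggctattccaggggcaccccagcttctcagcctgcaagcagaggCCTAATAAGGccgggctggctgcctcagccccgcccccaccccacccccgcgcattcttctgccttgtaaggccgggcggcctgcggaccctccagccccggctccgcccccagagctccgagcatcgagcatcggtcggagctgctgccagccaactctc
The box spanned -73 to -64 in Acta1 and -161 to -152 in Myl9. A CArG box was found in 3 of 48 promoters of lower genes (6.25%), 2 of 182 of higher genes (1.10%) 126 of 10331 of genes tested (1.22%) and 378 of all 27025 (1.40%). The third promoter among the lower genes was that of a histone gene. The 2 among the higher genes were those of the atrial light chain Myl7 and of Cbr2.

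Of 23 epithelial genes tested, 4 fell by the rule and 0 rose. All 23 had a fold change below 0, with a median of -0.68, and the OP9 libraries lay below the gelatin libraries without overlap in 11. The summed level of all 28 was 627 to 765 FPKM with OP9 and 1007 to 1134 on gelatin. Sfn (chromosome 4, 133600556 to 133602168), the epithelial 14-3-3 sigma protein, was at 9.44, 8.17 and 9.80 against 43.8, 49.7 and 55.6 FPKM (log2 fold change -2.32, SE 0.11, adjusted p = 0.000616). St14, the membrane protease matriptase, changed by -1.36, its inhibitor Spint1 by -1.08 and the tight junction protein Ocln by -1.04. E-cadherin (Cdh1) was at 98.5, 91.3 and 146 against 174, 199 and 178 FPKM, a difference under the fold threshold (-0.74, adjusted p = 0.0446), while Epcam, Krt8 and Krt18 overlapped between the groups. Sfn was called whichever library was left out. St14 and Spint1 were called in 1 of the 6 fits (lost without OP9 replicate 1 or 2 or any 1 gelatin library, adjusted p 0.0601 to 0.126 and 0.0783 to 0.142) and Ocln in 2 (lost without OP9 replicate 1 or 2 or gelatin replicate 2 or 3, 0.0961 to 0.129).

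The other large falls came from several functions. Neurofilament light and medium chains fell together: Nefl went from 39.4, 59.7 and 32.1 to 9.91, 11.4 and 7.25 FPKM (log2 fold change -2.06, SE 0.24, adjusted p = 0.00365) and Nefm from 6.48, 7.48 and 4.19 to 1.6, 1.41 and 0.93 (-1.59, SE 0.21, adjusted p = 0.00600). Another neuronal gene, the growth cone protein Gap43, rose by 1.16, and the neural list as a whole had 1 rise and 2 falls among 17 tested (median -0.32). Lrp2 (megalin), an endocytic receptor, went from 10.6, 14.2 and 16.7 to 1.95, 1.72 and 5.11 FPKM (-2.0, adjusted p = 0.0113), the laminin-binding integrin Itga3 changed by -1.81 and the laminin receptor Bcam by -1.51. Among signaling genes, Wnt6 fell from 3.86, 6.39 and 3.67 to 0.49, 0.72 and 0.23 FPKM (-1.91, adjusted p = 0.00315), the lymphotoxin Ltb by 1.66, the potassium channel Kcnj3 by 1.61, the vessel guidance cue Sema3e by 1.61 and the FGF carrier Fgfbp1 by 1.51. Hist1h2an, a histone H2A gene with near-identical copies, was at 0, 1.37 and 0 against 3.68, 4.66 and 7.71 FPKM (-2.20, adjusted p = 0.0155), and how its reads were divided is not known. Dhrs3, a retinaldehyde reductase, fell by 1.61, the phosphatase subunit Ppp4r4 by 1.72, the calcitonin receptor Calcr by 1.57 and the transcription factor Sp6 by 1.56. In this paragraph, calls were lost without gelatin replicate 2 for Lrp2 and Ppp4r4 (adjusted p 0.0667 and 0.0710). Dhrs3 was lost without OP9 replicate 1 or 2 or gelatin replicate 1 or 2 (0.0521 to 0.0779), Sp6 without OP9 replicate 1 or 2 or gelatin replicate 2 or 3 (0.0631 to 0.0883), Calcr without any 1 library other than OP9 replicate 3 (0.0767 to 0.135), and Hist1h2an without OP9 replicate 1 or gelatin replicate 2 or 3 (0.0540 to 0.0727).

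Of 34 interferon response and antigen presentation genes tested, 8 rose and 2 fell by limma (median 0.35), and 16 above 0 and 8 below had an unadjusted p under 0.05. Among the risers were interferon targets: Oas1a, an RNA sensor, was at 9.61, 5.86 and 4.51 against 0.46, 0.52 and 0.64 FPKM (log2 fold change 2.26, SE 0.23, adjusted p = 0.00251), Lgals3bp changed by 2.06, Ifi27 by 1.57, Rtp4 by 1.35, Ifitm1 by 1.23 and Ifit3 by 1.16. Ifitm1, which also marks early mesoderm, was abundant, at 203, 219 and 197 FPKM with OP9 and 95.7, 83.5 and 83.2 on gelatin. The fallers were Gbp2, an interferon-gamma GTPase (-1.23, adjusted p = 0.00624), and Cd74, the MHC class II invariant chain, at 0.68, 0.89 and 0.92 against 3.07, 2.61 and 2.45 FPKM (-1.02, adjusted p = 0.00481). Gbp2b, a relative of Gbp2 whose reads may be shared with it, fell by 1.57. The MHC class I genes H2-K1 and B2m overlapped between the groups: H2-K1 was at 30.0 to 37.3 FPKM with OP9 and 36.8 to 39.7 on gelatin, and B2m at 54.0 to 76.9 against 53.6 to 73.4. Cd74 was lost without OP9 replicate 1 or gelatin replicate 1 (adjusted p 0.0281 and 0.0193, with folds under the threshold), and Ifit3 fell under the filter without OP9 replicate 1.

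Of 44 proliferation genes tested, 0 rose and 0 fell by limma, with a median of 0.08 (0.027 without OP9 replicate 3 and 0.032 without gelatin replicate 1), and 7 above 0 and 1 below had an unadjusted p under 0.05. Of 20 CDK inhibitors and p53 targets, 1 rose and 1 fell (median -0.28), and 3 above 0 and 8 below had an unadjusted p under 0.05. The riser was Gdf15, a stress cytokine, at 3.45, 4.16 and 11.8 against 0.12, 0.19 and 0.15 FPKM (log2 fold change 2.53, SE 0.37, adjusted p = 0.00825), and the faller Perp, a desmosome protein, at 7.72, 8.03 and 7.25 against 13.9, 21.4 and 24.1 (-1.23, adjusted p = 0.0103). The p53 target Cdkn1a (p21) was at 50.2, 44.8 and 41.8 against 69.9, 81.8 and 79.2 FPKM, apart but under the fold threshold (-0.74, adjusted p = 0.00553). Perp was lost without gelatin replicate 2 (adjusted p 0.0633). Of the TGF-beta, BMP and Wnt genes, 2 of 21 tested rose and 0 fell (median 0.13, -0.0033 without OP9 replicate 1, 0.035 without OP9 replicate 2 and 0.22 without OP9 replicate 3), namely Tgfbi, a TGF-beta-induced matrix protein (1.5), and Acvrl1 (ALK1), an endothelial BMP receptor (1.46). Ndufa4l2, a hypoxia-induced mitochondrial protein, was among the 20 largest rises by fold, but its gelatin libraries spread from 2.52 to 19.1 FPKM against 36.8 to 56.0 with OP9 (2.60, adjusted p = 0.0346), and it was lost without OP9 replicate 1 or 2 or gelatin replicate 2 or 3 (0.0656 to 0.149). S100a4, a calcium-binding protein of motile and stromal cells, was at 11.95, 9.53 and 26.6 against 1.11, 0.88 and 2.25 FPKM (2.73, adjusted p = 0.00684).

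**Figure D4:**
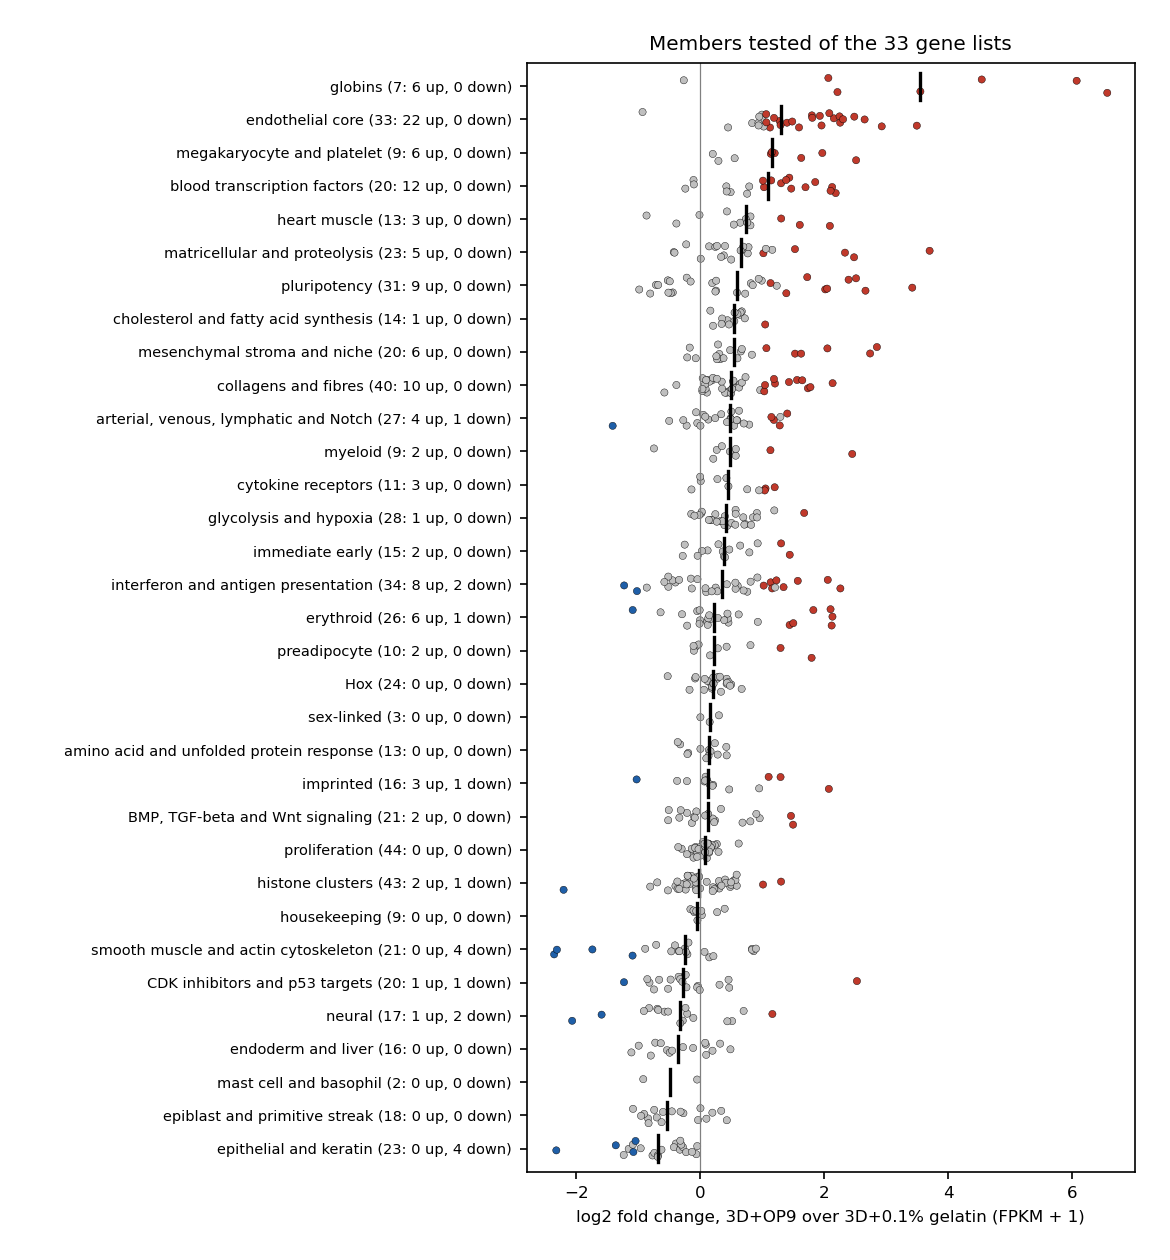
Log2 fold change of each tested member of 33 gene lists, 3D+OP9 over 3D+0.1% gelatin, with red for called higher, blue for called lower, grey for not called and a black bar at the list's median. Globin, endothelial, megakaryocyte and blood transcription factor lists have medians above 1, and every epithelial point lies below 0. Weak genes could pass the filter through 1 group alone, and without the filter the megakaryocyte median is 0.36.

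The called genes were then read in the 15 libraries of mESC and sorted cells, which took no part in the calls. Their table was normalized on its own, so levels are compared within it. Of the called genes, 264 higher and 64 lower had a unique symbol there, and 12509 of all genes tested. In D5-LSKCD201+ cells, sorted from the coculture as lineage-negative, Sca-1+, c-kit+ and CD201+, 83.7% of the higher genes and 39.1% of the lower genes averaged 1 FPKM or more, against 79.9% of all. In mESC the order was reversed, at 46.6% of the higher and 68.8% of the lower genes, against 80.1% of all. D5-LSKCD201- cells had 86.7% of the higher and 75.0% of the lower genes at this level, against 85.6% of all. The median level in D5-LSKCD201+ cells was 17.1 FPKM for the higher genes, 0.523 for the lower genes and 8.13 for all.

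**Figure D5:**
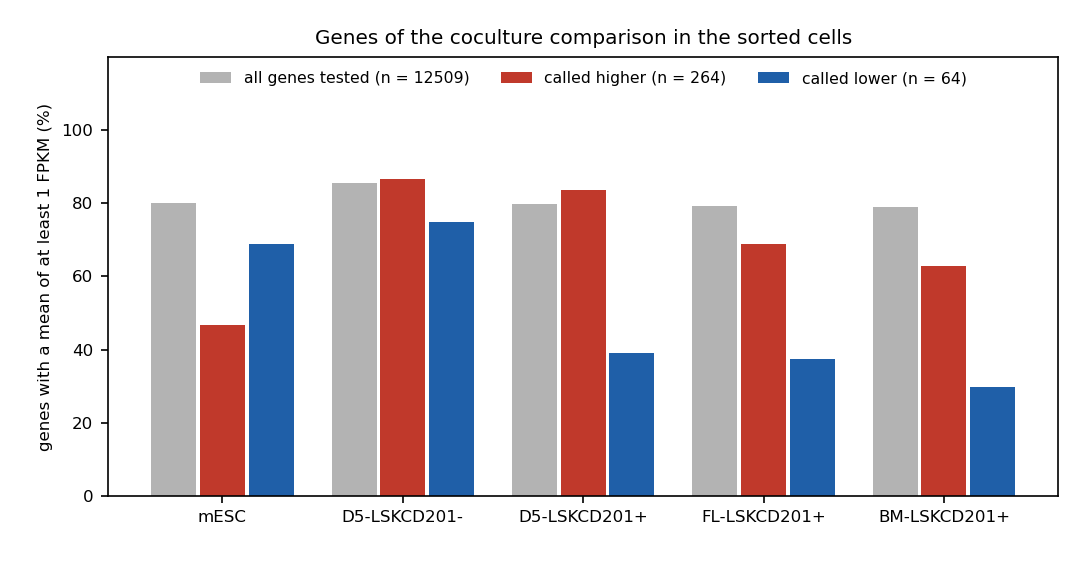
Percentage of genes that averaged 1 FPKM or more in mESC and each of 4 sorted groups (3 libraries each), for all genes tested in the coculture (grey), those called higher in 3D+OP9 (red) and those called lower (blue). Lower genes are least often at this level in fetal liver and bone marrow cells, at 37.5% and 29.7%.

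The same genes were set between the D5-LSKCD201+ and D5-LSKCD201- cells of the coculture. All 3 D5-LSKCD201+ libraries were above all 3 D5-LSKCD201- libraries for 30.1% of all genes, for 169 of the higher genes (64.0%) and for 11 of the lower genes (17.2%). They were below for 43.3% of all genes, for 60 of the higher (22.7%) and for 48 of the lower genes (75.0%). The split differed between the gene groups. All 22 endothelial risers were above in D5-LSKCD201+ cells, with Cdh5 at 70.8 ± 3.02 FPKM (SD, n = 3) against 2.31 ± 0.205. Of the 12 blood transcription factors that rose, 9 were above and 3 below (Runx1, Gfi1b and Ikzf1). The 6 erythroid risers split into 2 above, 2 below and 2 overlapping, the 5 matricellular risers into 2, 1 and 2, and the 8 interferon and antigen presentation risers into 5, 2 and 1. All 4 contractile fallers were below in D5-LSKCD201+ cells, with Tagln at 10.4 ± 0.826 FPKM against 41.6 ± 8.82 (SD, n = 3). Of the 9 pluripotency risers, 8 were below in D5-LSKCD201+ cells and 1 overlapped, with Zfp42 at 2.82 ± 0.677 FPKM against 338 ± 31.2 (SD, n = 3). Of the 5 globins matched, 3 were below and 2 overlapped.

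Of the called genes that exceeded 1 FPKM in neither D5 group, 15 were higher (5.68%) and 14 lower (21.9%), against 11.5% of all genes. The 15 included the red cell gene Alas2, which was at 0.455 ± 0.104 FPKM in D5-LSKCD201+ and at 53.7 ± 5.03 in fetal liver cells (SD, n = 3). Igfbp3, which fell with OP9, was 1 of the 11 fallers that were above in D5-LSKCD201+ cells, at 617 ± 3.69 FPKM against 49.1 ± 4.2 (SD, n = 3).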

How the data were processed

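RNA of total cells was sequenced for 6 libraries, and the authors deposited FPKM per gene, rounded to 2 decimals. For RNA-seq of sorted samples the methods give alignment to GRCm38 with HISAT2 2.0.5, assembly with StringTie 1.3.3 and differential expression with Cuffdiff 1.3.0. The submitters' processing notes also list mm9, whose role is not given in the sources used here. FPKM of mESC and the sorted cells were deposited in a second table, normalized separately and matched by symbol. Per-sample columns not used numbered 0.

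FPKM plus a pseudocount of 1 were log2-transformed, the filter was an average of 0.5 FPKM over the 6 libraries, and limma 3.58.1 (R 4.3.3) was fitted with a mean-variance trend on the 6 libraries, two-sided, with Benjamini-Hochberg adjustment over all genes tested. Calls needed a log2 difference of 1 or more in size and, after adjustment, a p below 0.05. An exact two-sided test of 3 libraries against 3 cannot go below 0.1, so single values were not permuted. The code was tested on simulated data. Depth is unknown and no counting interval was computed.

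Members and the 33 gene lists were chosen with earlier results of these data known. Genes named are the 20 largest rises and falls, the first 4 genes and up to 6 called members of each list and the 5 most abundant genes. Other list members named were chosen after their values were seen. Coordinates and promoters (250 bases before the start) are from RefSeq, GRCm38.p6, by gene number, and 19199 of 19321 genes matched. A total of 37 symbols that read as dates or numbers were restored in this way. Alternatives were another pseudocount, other filters, other scalings, a constant prior variance, a replicate block, adjusted p alone, each library left out, and OP9 replicates 1 and 2 averaged. Plots came from matplotlib 3.10.9 under Python 3.11.15.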

Additional observations from a re-analysis of the deposited data

How the results depend on the processing

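With a pseudocount of 0.1, 413 genes were called higher and 118 lower, and by adjusted p alone 597 and 294. Leaving out each library in turn gave 172 to 317 higher and 37 to 127 lower genes. No gene called higher or lower was called the other way under any alternative run, and over all tested genes the median stayed between -0.02 and 0.02. Averaging OP9 replicates 1 and 2 as 1 sample, an alternative chosen after seeing the data, gave 222 higher and 45 lower genes. Without a filter on low values, 198 and 44 were called. Of 138 named genes, not all of which had a call to lose, 32 lost it without the filter, 21 with this averaging and 7 under quantile normalization. Without gelatin replicate 2, 33 lost it. List medians of weakly expressed genes moved with the pseudocount of 0.1 and without the filter: the megakaryocyte median of 1.16 came to 3.35 and 0.36, and the globin median of 3.55 to 5.63 and 2.14. The endothelial median came to 2.43 with the pseudocount of 0.1, and the neural median of -0.32 to -0.69. Without the filter the epithelial median of -0.68 came to -0.41, the matricellular median of 0.65 to 0.35, the heart muscle median of 0.74 to 0.43, the preadipocyte median of 0.22 to 0.013, the endoderm median of -0.36 to 0 and the TGF-beta, BMP and Wnt median of 0.13 to 0.081. Quantile normalization gave 0.13 for the preadipocyte and 0.057 for the TGF-beta, BMP and Wnt median. With OP9 replicates 1 and 2 averaged, the last was 0.016, the arterial median of 0.49 came to 0.32 and the imprinted median of 0.13 to 0.081. The cause of these shifts was not tested. FPKM without read numbers leave the precision of genes near the filter unknown.

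Libraries with the same number in both groups deviated from their group means with correlations of 0.18, 0.07 and 0.29. Replicates 1 and 2 also correlated across numbers, at 0.11 and 0.17. Replicate 3 of either group went against replicates 1 and 2 of the other, at -0.27 to -0.11. The main fit took no pairs, and whether the numbers mark shared batches was not tested. With the replicate number as a block, 295 genes were called higher and 84 lower. Among the genes named, Etv2 was called under the block (1.02, adjusted p = 0.0290) and not without it.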

Other observations

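Imprinted genes went both ways. Igf2, a fetal growth factor, was at 471, 565 and 508 FPKM with OP9 and 212, 69.5 and 120 on gelatin (log2 fold change 2.08, adjusted p = 0.0143 by limma), and the mesodermal gene Mest rose by 1.10. Snrpn, a splicing factor gene of brain and stem cells, was at 69.7, 67.4 and 114 against 140, 176 and 187 FPKM (-1.02, adjusted p = 0.0279). Of 16 imprinted genes tested, 3 rose and 1 fell (median 0.13, ranging from 0.07 without OP9 replicate 2 to 0.28 without OP9 replicate 3). Mest was called whichever library was left out. Igf2 was lost without OP9 replicate 2 or gelatin replicate 3 (adjusted p 0.0579 and 0.0535), and Snrpn without OP9 replicate 1 or 2 or gelatin replicate 2 or 3 (0.0968 to 0.128).

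All 14 genes of cholesterol and fatty acid synthesis had a fold change above 0 (median 0.55), and 1, the desaturase Scd1 (1.05), was called. Among immediate early genes, Fosb (1.44) and Jun (1.31) rose out of 15, and the glycolytic enzyme Pfkp (1.68) was the 1 riser of 28 glycolysis and hypoxia genes. Scd1 was lost without OP9 replicate 1 or gelatin replicate 1 (0.0369 and 0.0269, with folds under the threshold), Fosb without OP9 replicate 1 or 2 or gelatin replicate 1 (0.0789 to 0.0963), Jun without any 1 library other than OP9 replicate 3 (0.0526 to 0.174), and Pfkp without OP9 replicate 1 or 2 or gelatin replicate 2 or 3 (0.0514 to 0.0969). Of 24 Hox genes tested, 0 were called by limma, 20 were above 0 and 2 of these had an unadjusted p under 0.05. Of 16 endoderm and liver genes 0 were called and 0 had an unadjusted p under 0.05, and their median of -0.36 went to 0.38 without gelatin replicate 3.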
